A study of Mus musculus with 8 samples.

Results

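The genes described here are 10 neutrophil genes of the mouse, of 37074 gene names on the array: *S100a8*, *S100a9*, *Lcn2*, *Ltf*, *Ngp*, *Mmp8*, *Mmp9*, *Csf3r*, *Cxcr2* and *Ffar2*. They were chosen by name, and every spot that carries 1 of these names and is not a control was taken, which gave 12 of the 56605 probes on the array. *Lcn2* and *Mmp9* had 2 probes each. RNA was measured in tissue labelled BAT from 4 Co mice and 4 Pg mice with 1 single-color Agilent array per mouse. All were C57BL/6J mice (male by the methods), 12 weeks old. Pg mice received *Porphyromonas gingivalis*, a bacterium of periodontal disease, sonicated and suspended in 100 μL of saline. Co mice received saline alone. Both were given by intravenous injection, and tissue was taken 18 h later. The dose is 100000000 CFU by the methods, while the labels print it as 108 CFU. By the methods the tissue was interscapular fat, and RNA came from the tissue as a whole and not from sorted cells.

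Neutrophils are short-lived white blood cells made in the bone marrow. They fill their granules in a fixed order while they mature, leave the marrow under granulocyte colony-stimulating factor (G-CSF) and follow CXC chemokines into tissue. *S100a8* and *S100a9* encode the calcium-binding proteins that pair to form calprotectin, which fills the neutrophil cytosol and is also made by monocytes. *Lcn2* (lipocalin, which binds bacterial iron carriers), *Ltf* (lactoferrin, which binds iron), *Ngp* (neutrophilic granule protein), *Mmp8* (collagenase) and *Mmp9* (gelatinase) encode granule proteins. *Csf3r* encodes the G-CSF receptor, *Cxcr2* the receptor for chemokines such as CXCL1, and *Ffar2* a receptor for acetate and other short-chain fatty acids. Several of them are not private to neutrophils, since adipocytes and macrophages make *Lcn2* and adipocytes also carry *Ffar2*.

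Levels are log2 values of the processed intensity after quantile normalization between the 8 arrays, and each holds for 1 probe and is not set against another probe. Agilent's software marks a spot as well above background when its signal clears the local background by a set margin. The share of all probes well above background was 61.4% to 63.3% over the Co arrays, against 55% to 60.2% over the Pg arrays. Between 20% and 21.5% of all probes held a surrogate value, which the software writes in place of a signal too low to measure, in Co mice, and 22.9% to 28.2% in Pg mice. The part of this difference in the results was not tested. All arrays lay on 1 slide, with Co and Pg in different rows, so that row and group cannot be told apart. Of 20 brown adipocyte markers, 16 were well above background on all 8 arrays, but *Ucp1*, *Elovl3* and *Bmp8b* were so on none, and all 20 skeletal muscle markers were above background on all 8 arrays. By these probes the identity of the tissue is in doubt, and every value below belongs to RNA whose source is BAT by its label.

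Of the 12 probes, 7 probes of 6 genes met the limit of 4 arrays well above background and entered the limma fit with 33820 probes. The other 5 probes, of *Ltf*, *Ngp*, *Mmp9* and *Cxcr2*, did not. A probe was called when the false discovery rate q was under 0.1 and the fold change above 1.5. None of the 7 probes was called (0 of 7, higher or lower), while 1.61% of all probes tested were, 0.313% higher and 1.3% lower in Pg mice. That lean to lower calls, 106 probes higher and 440 lower, changed with the scaling. It was 20 and 7 if arrays were not normalized, and 137 and 146 if each was scaled to its 75th percentile. At q under 0.1 without the fold limit the count was also 0 of 7, against 7.82% of all probes. The Co and Pg values overlapped for all 7 (0 of 7 without overlap), while 15.8% of all probes tested did not overlap, 4.83% with the higher values in Pg mice. In the same fit 4 of the 7 had an unadjusted p under 0.05, as had 22.8% of all probes. The fitted value was higher in Pg mice for 6 of the 7 probes, against 42.3% of all probes (56% without normalization between arrays), and the median log2 fold change was 0.24 for the 7 probes and -0.04 for all probes (0.03 without normalization). *S100a8*, *S100a9* and *Ffar2* had the highest fitted values, with some of the Pg arrays far above the Co arrays and Pg replicate 3 among them, as the plot of levels by array shows.

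**Figure D1:**
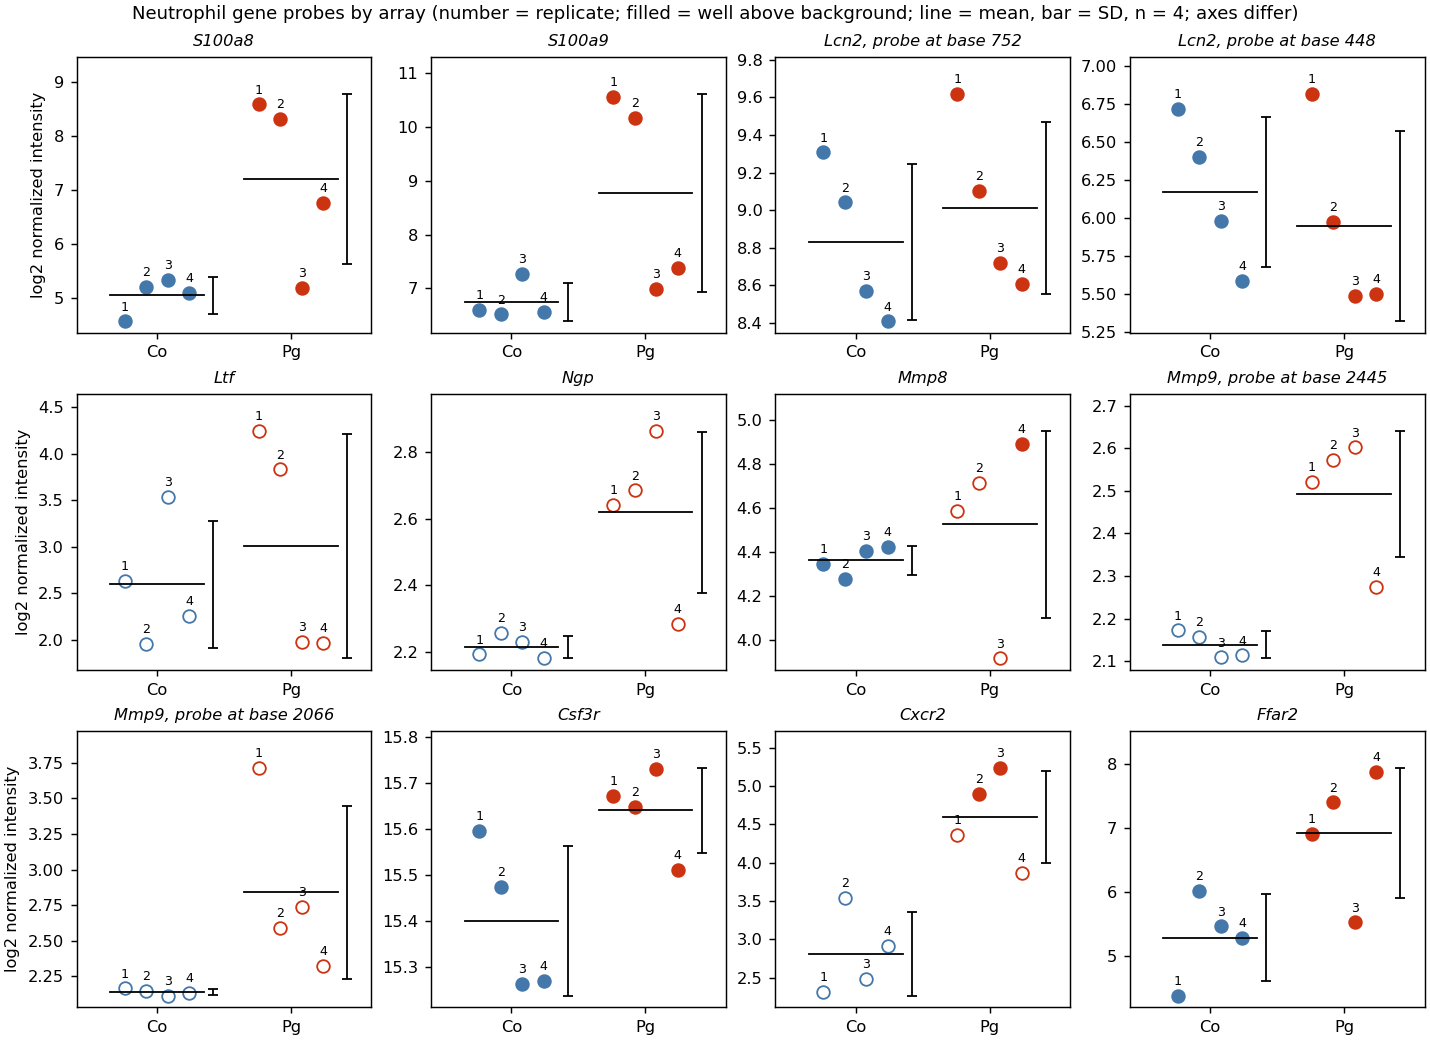
Log2 normalized intensity (vertical axis, scaled separately in each panel) of the 12 probes on the 4 Co and 4 Pg arrays (horizontal axis). Points are arrays, numbered by replicate, filled where the probe was well above background. Lines are means and bars SD (n = 4). For *S100a8* and *S100a9*, Pg replicates 1 and 2 lie far above the Co arrays and Pg replicate 3 lies among them. *Ltf*, *Ngp* and *Mmp9* have no filled point.

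The calprotectin pair was measured on every array. The probe for *S100a8* lies at base 214 of NM_013650 (mm9, chr3:90473778-90473837) and shares no stretch of 20 bases with another probe of the array. Its sequence is shown because every *S100a8* value rests on it, and for *S100a9* (base 444 of NM_001281852) the last 30 bases of the probe are given.
S100a8 probe: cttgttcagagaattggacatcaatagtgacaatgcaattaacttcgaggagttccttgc
S100a9 probe, bases 31 to 60: ttgttctgggaaatgataagataaataata

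*S100a8* stood at 4.56, 5.20, 5.33 and 5.09 (log2) on Co arrays 1 to 4 and at 8.59, 8.32, 5.18 and 6.76 on Pg arrays 1 to 4. Pg replicates 1, 2 and 4 lay above every Co array, while Pg replicate 3 lay inside the Co range, so that the groups overlapped. The means were 5.05 ± 0.34 in Co mice and 7.21 ± 1.58 in Pg mice (SD, n = 4). Against the Co mean, the Pg arrays stood at 11.6, 9.68, 1.1 and 3.27 times. The fitted log2 fold change was 2.16 (SE 0.71, 95% interval 0.53 to 3.80, limma q = 0.132), and the exact permutation p of the levels was 0.0857, two-sided, where 4 arrays against 4 cannot go below 0.0286. By the size of its fitted change the probe ranked 24 of 33820. The SD among Pg mice was larger than that of 99.2% of the probes tested. Without Pg replicate 3 the fitted value was 2.84 (limma q = 0.0521), which passes both limits. That array is the Pg array inside the Co range, so the rise follows from leaving it out and supports nothing. The fitted value was 1.70 without Pg replicate 1 (limma q = 0.231) and 1.36 with normexp background correction (limma q = 0.106).

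*S100a9* stood at 6.60, 6.51, 7.27 and 6.57 on the Co arrays and at 10.56, 10.17, 6.99 and 7.38 on the Pg arrays. Pg replicates 1 and 2 were again the highest, Pg replicate 4 was just above the highest Co array and Pg replicate 3 was below it. The means were 6.74 ± 0.35 and 8.77 ± 1.85 (SD, n = 4). The fitted log2 fold change was 2.04 (SE 0.82, 95% interval 0.13 to 3.94, limma q = 0.195; exact permutation p = 0.0571). Pg replicates 1 and 2 stood at 14.1 and 10.8 times the Co mean, and Pg replicates 3 and 4 at 1.19 and 1.57 times. The SD among Pg mice exceeded that of 99.6% of the probes tested. Over the 8 arrays the levels of *S100a8* and *S100a9* had a Pearson r of 0.96, given as a description of arrays that share a slide.

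The genes of the pair are neighbours on chromosome 3, read from opposite strands, with start sites 26650 bases apart in GRCm38.p6. The 250 bases before the start of each are shown as RefSeq gives them for this build, since these genes had the highest fitted changes of the 10, and those of *Lcn2* are set beside them. Capitals mark matches to the letters searched on both strands, TTGCNNAA for C/EBP, GAGGAAGT for PU.1, GGG and TTTCC with 2 bases between them for NF-kB and TATAAA for the TATA element, and no matches overlap in these sequences.
S100a8, chr3:90668821-90669070, plus strand: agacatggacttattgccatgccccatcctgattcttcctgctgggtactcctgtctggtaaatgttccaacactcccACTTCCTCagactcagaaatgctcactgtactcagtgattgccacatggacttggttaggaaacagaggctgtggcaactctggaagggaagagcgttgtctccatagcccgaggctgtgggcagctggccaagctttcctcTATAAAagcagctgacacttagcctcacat
S100a9, chr3:90695722-90695971, minus strand: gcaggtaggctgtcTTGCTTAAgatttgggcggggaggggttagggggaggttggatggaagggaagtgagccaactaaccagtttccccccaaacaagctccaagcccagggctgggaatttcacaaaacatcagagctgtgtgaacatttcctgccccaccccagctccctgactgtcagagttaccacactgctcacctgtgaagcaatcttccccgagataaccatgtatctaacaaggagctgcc
Lcn2, chr2:32387740-32387989, minus strand: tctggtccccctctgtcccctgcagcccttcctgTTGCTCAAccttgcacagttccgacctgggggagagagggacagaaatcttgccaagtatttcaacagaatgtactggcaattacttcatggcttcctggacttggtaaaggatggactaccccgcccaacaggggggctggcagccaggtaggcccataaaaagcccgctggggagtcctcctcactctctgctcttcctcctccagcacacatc

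In *S100a8* the capitals are a PU.1 match that begins 172 bases before the start site (on the other strand) and a TATA match at 30 bases. In *S100a9* and *Lcn2* they are C/EBP matches at 236 and 216 bases. PU.1 and C/EBP factors are known to act in myeloid cells. An entry was found for 9 of the 10 genes, with 12 promoters in all, and none for *Mmp9*. A C/EBP match was present in 6 of these 9 genes (*S100a9*, *Lcn2*, *Ltf*, *Ngp*, *Mmp8* and *Ffar2*), which is 8 of the 12 promoters since *Ffar2* has 4, and in 9.56% of all 32851 promoters of the table. PU.1 letters were present in 2 of the 12 promoters, those of *S100a8* and *Mmp8*, and in 2.44% of all promoters. The NF-kB letters were in 0 of the 12 promoters and in 1.41% of all promoters, and the TATA letters in 1 of the 12 and in 12.4% of all promoters. A match is only a run of letters in this window, and genes with and without a C/EBP match are found among those with the widest and the narrowest differences.

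Among the granule proteins, *Lcn2* was well above background on all 8 arrays with both probes, and its Co and Pg values overlapped. The probe at base 752 of NM_008491 stood at 9.31, 9.04, 8.57 and 8.41 on the Co arrays and at 9.62, 9.10, 8.72 and 8.61 on the Pg arrays. Replicate 1 was the highest and replicate 4 the lowest within each group, and the groups overlapped throughout. Its fitted log2 fold change was 0.18 (SE 0.27, 95% interval -0.45 to 0.81, limma q = 0.729). The probe at base 448 stood at 6.72, 6.40, 5.98 and 5.59 on the Co arrays and at 6.82, 5.98, 5.49 and 5.50 on the Pg arrays. Its fitted value had the opposite sign, -0.23 (SE 0.35, 95% interval -1.04 to 0.58, limma q = 0.735). Over all 8 arrays the 2 probes of *Lcn2* thus did not share a direction. With 1 array left out, the probe at base 448 lay between -0.52 (without Pg replicate 1) and -0.05 (without Co replicate 1). Without Pg replicate 1 the probe at base 752 was below 0 too (-0.02). With the authors' values the probe at base 448 turned to 0.06. As folds the intervals reach from 0.487 by the second probe to 1.76 by the first, and they do not show that the level was the same.

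*Mmp8* was dim, at 4.34, 4.28, 4.41 and 4.42 on the Co arrays and 4.58, 4.71, 3.91 and 4.89 on the Pg arrays. All 4 Co arrays but only Pg replicate 4 were well above background, and Pg replicate 3 was the lowest of the 8. The fitted log2 fold change was 0.16 (SE 0.19, 95% interval -0.28 to 0.61, limma q = 0.650). It was 0.37 (q = 0.0859 in limma) without Pg replicate 3 and 0.04 without Pg replicate 4. *Ltf*, *Ngp* and both probes of *Mmp9* were well above background on 0 of the 8 arrays and have no fold change here. *Ltf* read 2.63, 1.96, 3.54 and 2.26 on the Co arrays and 4.25, 3.83, 1.98 and 1.97 on the Pg arrays, with the highest values on Pg replicates 1 and 2, below the limit of measurement. The values of *Ngp* (8 of 8 arrays) and *Mmp9* (8 and 7 of 8) were surrogates. They were lower on all Co arrays than on all Pg arrays (for *Ngp* 2.18 to 2.26 against 2.28 to 2.87), and before normalization the surrogate written for *Ngp* was 3.22 to 3.56 intensity units on the Co and 4.51 to 6.92 on the Pg arrays. Such values are not measurements of the transcript.

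The receptors differed in how well they could be read. *Ffar2* was well above background on all 8 arrays. The last 30 bases of its probe (base 1460 of NM_146187) are shown, and so is its most upstream promoter entry, on the minus strand, with a C/EBP match at 74 bases.
Ffar2 probe, bases 31 to 60: gcagaaggggtacagagttctgaatttgtc
Ffar2, chr7:30823776-30824025, minus strand: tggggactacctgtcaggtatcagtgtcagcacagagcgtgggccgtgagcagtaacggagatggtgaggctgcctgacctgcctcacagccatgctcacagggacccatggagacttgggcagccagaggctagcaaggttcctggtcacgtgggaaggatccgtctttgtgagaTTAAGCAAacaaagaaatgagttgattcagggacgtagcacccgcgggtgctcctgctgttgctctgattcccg

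Its level was 4.39, 6.02, 5.47 and 5.29 on the Co arrays and 6.90, 7.39, 5.53 and 7.87 on the Pg arrays. Pg replicates 1, 2 and 4 lay above every Co array, with Pg replicate 4 the highest of all 8, and Pg replicate 3 lay inside the Co range. The means were 5.29 ± 0.68 and 6.92 ± 1.01 (SD, n = 4). The fitted log2 fold change was 1.63 (SE 0.53, 95% interval 0.40 to 2.87, limma q = 0.133; exact permutation p = 0.0571), rank 63 by size. Pg arrays 1 to 4 stood at 3.06, 4.30, 1.18 and 5.99 times the Co mean. The order among the Pg arrays thus differed from that of *S100a8*, where Pg replicate 4 was the third. The Pearson r of *Ffar2* with *S100a8* over the 8 arrays was 0.82, and with *S100a9* 0.62. *Ffar2* passed both limits with normexp background correction (0.83, limma q = 0.0881), with the median signal (0.91, q = 0.0730) and with the authors' log2 values (1.05, q = 0.0964). These 3 fitted values were smaller than that over all 8 arrays here. It also passed without Pg replicate 3 (2.10, limma q = 0.0667), the Pg array inside the Co range, so nothing is drawn from that fit. Without Pg replicate 2 the fitted value was 1.48 (limma q = 0.243).

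*Cxcr2* read 2.31, 3.54, 2.49 and 2.92 on the Co arrays and 4.37, 4.90, 5.24 and 3.87 on the Pg arrays. It was well above background only on Pg replicates 2 and 3, and on no Co array, so that 6 of its 8 values were not measured above background, and neither a fold nor a test is taken from them. Pg replicate 3, the lowest Pg array for *S100a8*, *S100a9* and *Ffar2*, was the highest for *Cxcr2*.

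*Csf3r* was well above background on all 8 arrays, at 15.59, 15.47, 15.26 and 15.27 on the Co arrays and 15.67, 15.65, 15.73 and 15.51 on the Pg arrays. All Pg arrays but replicate 4 exceeded every Co array. The fitted log2 fold change was 0.24 (SE 0.09, 95% interval 0.02 to 0.46, limma q = 0.181; exact permutation p = 0.0571), a 1.18-fold difference. The second part of its probe is shown because it is not particular to *Csf3r*. Capitals mark bases that other probes of the array also hold.
Csf3r probe, bases 31 to 60: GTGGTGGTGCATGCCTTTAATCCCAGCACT
All 30 bases are found in the probe TC1653005 and 20 of them in that of *Gm1305*, and the run resembles the first part of a B1 repeat, an element present in many mouse transcripts. These probes had mean levels of 16.13 and 13.00 and were 0.23 and 0.27 higher in Pg mice (log2). The part of the shared bases in the *Csf3r* signal was not tested.

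**Figure D2:**
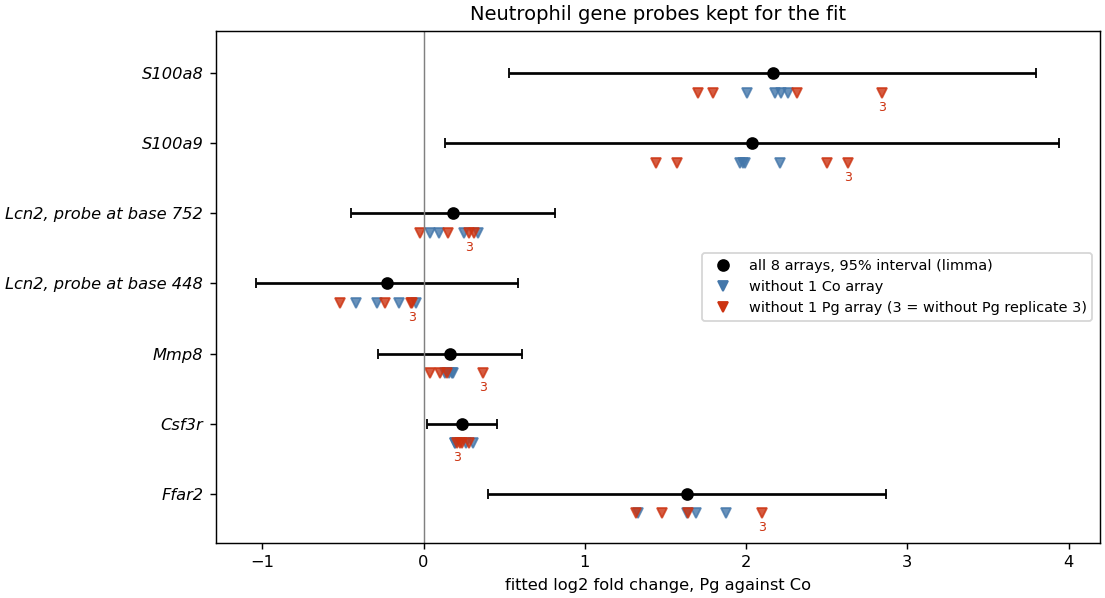
Fitted log2 fold change of Pg against Co mice (horizontal axis) for the 7 probes in the fit. Black points and bars are the estimate with its 95% interval over all 8 arrays, and triangles are the estimates with 1 Co (blue) or 1 Pg (red) array left out. *S100a8* lies at 2.16, *S100a9* at 2.04 and *Ffar2* at 1.63, each farthest to the right without Pg replicate 3, while the intervals of *Lcn2* and *Mmp8* include 0.

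Each gene was also set beside the others by array. Pg replicate 1 was the highest of the 8 arrays for 6 of the 12 probes, Pg replicate 3 for 4 and Pg replicate 4 for 2, the dim probes included. The 6 were *S100a8*, *S100a9*, both of *Lcn2*, *Ltf* and 1 of *Mmp9*. The 4 were *Ngp*, 1 of *Mmp9*, *Csf3r* and *Cxcr2*, and the 2 were *Mmp8* and *Ffar2*. The values of *Ltf*, *Ngp* and *Mmp9* in these counts are not above background on any array, and no share over all probes was taken. In bulk tissue, more cells of a type and more RNA per cell cannot be told apart. The genes closest to *S100a8* in pattern over the 8 arrays, among probes above background on all of them, were *Rnaseh2c*, *Clic5*, a transcript named only by its place on chromosome 6, *Bok* and *Hps1*, with Pearson r from 0.97 to 0.98. Their fitted log2 fold changes were between 0.06 and 0.50. Those closest to *Ffar2* were *Kctd17*, *Rara*, *Endod1*, *Tmem234* and *Iglon5*, with r from 0.96 to 0.97 and fitted values between 0.12 and 0.57. These r values describe 8 arrays and were picked as the highest of many.

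A wider list of neutrophil genes was read in the same fit. Of 50 listed genes on the array, 33 were tested. Fitted values were above 0 for 21 and below 0 for 12 of them, and their median was 0.12 (log2) against -0.01 over all 22455 genes tested (47.1% of them higher). The call was made for 0 of the 33, near the 1.19% of all genes tested (267 of 22455) that were called, and so no result about the list. The largest fitted values were those of *Clec4d* (a C-type lectin receptor, 0.95, limma q = 0.148), *Csf2rb* (the shared receptor chain for GM-CSF and IL-3, 0.81, q = 0.105) and *Slpi* (an inhibitor of neutrophil elastase, -0.76, q = 0.297). *Csf2rb* had a second tested probe with the opposite sign. No array was well above background for 13 of the 50, among them *Cd177*, *Cxcr1*, *Fpr1*, *Prtn3* and *Trem3*. *Ly6g*, the surface marker by which mouse neutrophils are usually sorted, had means of 8.87 ± 0.12 in Co mice and 8.96 ± 0.27 in Pg mice (SD, n = 4).

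Ligands that release or attract neutrophils were mostly too dim. Of 15 listed ligands on the array, 4 were tested and 8 were well above background on none, *Csf3* (G-CSF), *Cxcl2* and *Cxcl5* included. All 4 had fitted values above 0, against 47.1% of all genes, and 0 were called, against 1.19%. *Cxcl1*, a ligand of the *Cxcr2* receptor, stood at 4.48, 5.15, 5.50 and 4.87 on the Co arrays and at 7.96, 6.76, 5.66 and 5.91 on the Pg arrays, without overlap (1 of the 4 ligands tested, against 14.3% of all genes). Its fitted log2 fold change was 1.57 (SE 0.49, limma q = 0.122). Pg replicate 1 was the highest and Pg replicate 3 the lowest Pg array, as for *S100a9*. *C3*, the central complement protein, had 0.64 (q = 0.307), *Ppbp*, a platelet chemokine, 0.06 and *Tnf* 0.02 (SE 0.56) in the limma fit. *Tnf* stood at 7.83, 7.12, 7.29 and 9.82 on Pg arrays 1 to 4, against 7.81 to 8.36 on the Co arrays. Its fitted value therefore does not show an unchanged level.

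**Figure D3:**
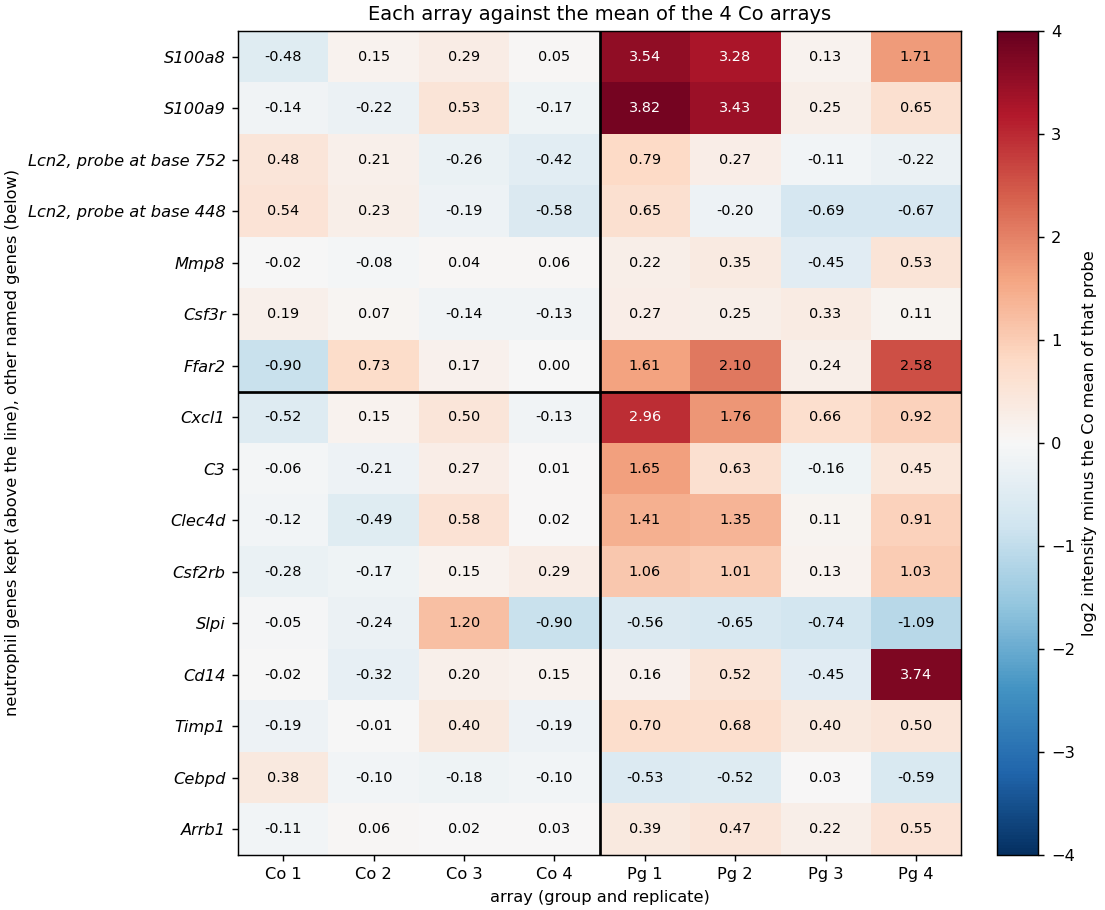
Log2 intensity of each array minus the Co mean of the same probe (color and printed value), for the 7 neutrophil probes in the fit (above the line) and 9 other genes named in the text (below). Columns are arrays. *S100a8* and *S100a9* are 3.28 to 3.82 above the Co mean on Pg replicates 1 and 2, and *Cd14* departs on Pg replicate 4.

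Receptors and enzymes of short-chain fatty acids and related metabolites were listed beside *Ffar2*. The fit held 13 of 21 listed genes, 9 higher and 4 lower, with a median of 0.07 and 0 called (1.19% of all genes were). *Arrb1* (β-arrestin, which ends signaling at such receptors) did not overlap between groups, at 9.45 ± 0.08 in Co mice and 9.86 ± 0.14 in Pg mice (SD, n = 4), with a log2 fold change of 0.41 (limma q = 0.0591) under the fold limit. It was the 1 gene of the 13 without overlap, against 14.3% of all genes tested. *Gnaq* (a G protein subunit through which *Ffar2* can signal) had 0.24 and *Slc16a1* (a lactate and short-chain acid transporter) -0.15, neither past the test. *Ffar3*, the sister receptor, had 0.07 (limma q = 0.670), and *Ffar1* and *Ffar4* were above background on no array.

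Partners of the 10 proteins and their regulators were measured well, with 18 of 22 tested. Of these, 12 were higher and 6 lower, with a median of 0.04 and 0 called, near the 1.19% of all genes. *Timp1*, an inhibitor of MMP8 and MMP9, did not overlap between groups, but only just (Co replicate 3 at 9.947, Pg replicate 3 at 9.951). Its means were 9.55 ± 0.28 in Co mice and 10.12 ± 0.14 in Pg mice (SD, n = 4). Its log2 fold change of 0.57 (SE 0.14, limma q = 0.0807) lies under the fold limit. *Cebpb* did not overlap either and had -0.30 (limma q = 0.154). These are 2 of the 18, near the 14.3% of all genes. *Cd14*, which passes endotoxin to TLR4, had 0.99 (q = 0.512 in limma), with Pg replicate 4 at 11.28 and the other Pg arrays between 7.10 and 8.07. *Cebpd*, a C/EBP factor, had -0.40 (limma q = 0.219). *Cebpe* and *Spi1*, which encodes PU.1, were above background on no array.

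Markers of other blood cells were read beside these values. Of the macrophage and monocyte markers, which can share *S100a8* and *S100a9*, 16 of 18 were tested, 11 higher and 5 lower with 0 called. Their median log2 fold change was 0.22, above the 0.12 of the wider neutrophil list. Their summed intensity was 60515 to 67551 in Co mice and 58318 to 80763 in Pg mice. *Timd4* alone was above background on none. By Pg array the sum was 59243, 80763, 58318 and 76005. Much of it is *Ly6c2*, with means of 15.51 in Co and 15.47 in Pg mice (log2). *Lyz2*, which varied more, stood at 12.98, 14.22, 12.32 and 14.14 on Pg arrays 1 to 4. Pg replicate 3 was the lowest Pg array for 14 of the 16 markers, as it was for *S100a8*, *S100a9* and *Ffar2*. It was also the lowest Pg array in the summed intensity of the red blood cell (229080), platelet (1781) and mast cell, eosinophil and basophil (508) markers. Its share of all probes well above background (55%) was the lowest too. It was not the lowest Pg array for the T and B cell markers (2114, against 1982 on Pg replicate 4). For the brown adipocyte markers it was the highest Pg array (758620). For the count of 14 of 16, no share over all probes was taken. *Ffar2* was highest on Pg replicates 4 and 2, the Pg arrays with the higher macrophage and monocyte sums, and *S100a8* and *S100a9* on Pg replicates 1 and 2. All 11 red blood cell markers tested had fitted values below 0 (median -0.63, 0 called), with sums of 491340 to 804260 in Co mice and 229080 to 819340 in Pg mice. *Epb42* was above background on none. Of the platelet markers 8 were tested, 4 higher and 4 lower, and of the mast cell, eosinophil and basophil markers 6, 4 higher and 2 lower, with *Siglecf*, *Epx*, *Prg2*, *Ccr3* and *Mcpt8* above background on none. Of 7 T and B cell markers tested, 3 were higher and 4 lower, and *Cd79b* was called (1.69, limma q = 0.0867), the 1 called gene of these lists, where 1.19% of all genes tested were called. The part of any of these cells in the levels of *S100a8*, *S100a9* and *Ffar2* was not tested.

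**Figure D4:**
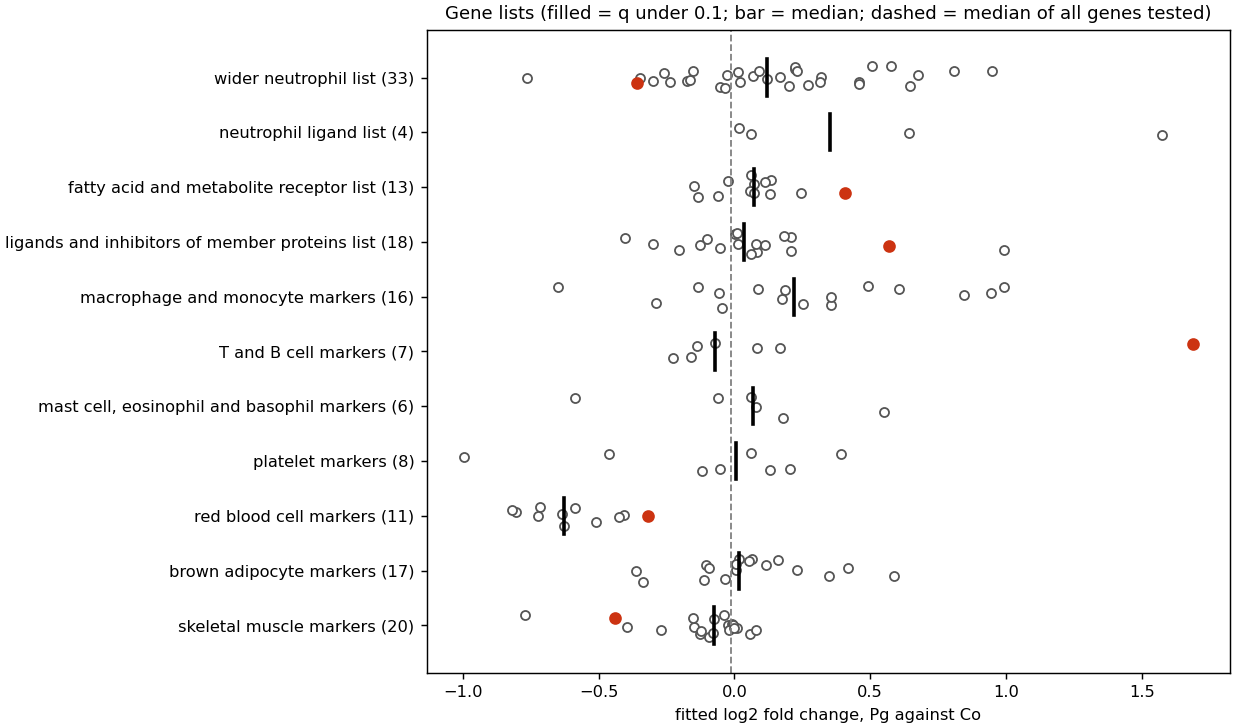
Fitted log2 fold change of Pg against Co mice (horizontal axis) for each tested gene of 11 lists (rows, with the number tested). Points are genes, filled where q is under 0.1, short bars are list medians and the dashed line is the median of all genes tested (-0.01). The wider neutrophil list has a median of 0.12, the macrophage and monocyte markers 0.22 and the red blood cell markers -0.63.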

How the data were processed

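The 10 genes and all lists were chosen with earlier results of these data known. The authors deposited Feature Extraction output (Agilent Feature Extraction 11.0.1.1, by the submitters' notes) with the intensity of each spot before normalization between arrays. Its processed signal has local background removed and a spatial trend taken out, with surrogates for low signals. They also deposited log2 values after their own background and quantile steps, an alternative here. The fold changes, p-values and scores beside them were not used.

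Population outlier spots were dropped, spots of a probe averaged, and the 56605 probes quantile-normalized and, after values under 1 were set to 1, log2-transformed in R 4.3.3 with the data.table package (1.17.8). Probes well above background on at least 4 of 8 arrays were fitted with limma 3.58.1 (lmFit and eBayes, two-sided, Benjamini-Hochberg over 33820 probes), at q under 0.1 and a fold change above 1.5, the limits of the study's methods. The fit was tested on simulated data. Exact permutation tests used all 70 splits. Precision is limited by the 8 arrays. The labels give 1 sample per array and do not say how mice were housed, so p-values cover the spread between these samples.

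Named were all 10 genes, the called and the 3 most changed genes of the 4 lists that are not cell type markers (wider neutrophil, neutrophil ligand, metabolite receptor, and partner and regulator genes), 5 genes closest in pattern to *S100a8* and *Ffar2*, and markers above background on no or all arrays. *Ly6g*, *Tnf*, *Cebpb* and *Ffar3* lie outside this rule and were chosen after their values were seen, as was *Cd79b*. In lists, a gene was read from its brightest probe. Array names were matched to RefSeq for 32994 probes. Promoters are RefSeq's for GRCm38.p6, and probe positions are mm9 by the file headers. Alternatives covered the signal and background step, the normalization, the filter, the floor, the authors' values, array weights, a replicate block and each array left out. A result for 1 listed gene is not reported here.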

Additional observations from a re-analysis of the deposited data

Results flagged for a closer look

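For *S100a9*, Co replicate 3 stood at 7.27 (log2), above the other 3 Co arrays at 6.51 to 6.60, with a gap that takes up 0.884 of the range of the Co group. It was the 1 array that lay apart from its group by this measure among the 14 groups of 4 tested for the 7 probes in the fit, where chance gives about 1 in 20.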

How the results depend on the processing

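The precision is that of 4 arrays a group, and *Ltf*, *Ngp* and *Mmp9* were below what the arrays can measure. The count of neutrophil probes called was 0 in the fit reported. It was 1 in each of the settings normexp, median signal and the authors' values (*Ffar2* each time), and 1 with no filter and with a filter of at least 1 array (*Cxcr2* in both, which enters only through 2 Pg arrays, with all Co values not above background, and supports nothing). It ranged from 0 to 2 over the fits with 1 array left out, with 2 without Pg replicate 3 (*S100a8* and *Ffar2*) and 0 in the others. Probes higher in Pg mice numbered 11 of 12 with no filter (47.5% of all probes), where 5 of the 12 are dim and *Ngp* and *Mmp9* hold surrogates, and 5 to 6 with 1 array left out. The sign of *Lcn2* turned to 0.0562 with the authors' values for the probe at base 448, and to -0.021 without Pg replicate 1 for the probe at base 752, which ranged from -0.021 to 0.3398 with 1 array left out. The causes were not tested. Over all alternatives the fitted log2 fold change was 1.36 to 2.84 for *S100a8* (q 0.0521 to 0.243), 1.44 to 2.63 for *S100a9* (q 0.108 to 0.350), 0.83 to 2.10 for *Ffar2* (q 0.0667 to 0.243) and 0.04 to 0.37 for *Mmp8* (q 0.0859 to 0.920). Over all probes, 546 were called in the fit reported, 94 with normexp (66 higher, 28 lower), 108 with the median signal (75 and 33), 283 with scaling to the 75th percentile, 27 without normalization, 318 with a filter on all 8 arrays, 303 with at least 1 array, 106 with the authors' values (60 and 46) and 3 (without Co replicate 3) to 697 (without Pg replicate 3) with 1 array left out. Same-numbered arrays deviated together in 1 of 4 pairs (r = 0.0589, -0.027, -0.0684 and 0.1784). The closest array of the other group had the same number for replicates 1 and 4, but not for replicates 2 and 3. With only 4 such r values, whether the numbers pair the mice cannot be decided. With the replicate number as a block, 0 neutrophil probes and 0 of all probes were called, and 6 of 7 neutrophil probes were higher. The block lowered the SE of *Lcn2* from 0.27 to 0.066 at base 752 and from 0.35 to 0.12 at base 448. The SE of *Mmp8*, *Csf3r* and *Ffar2* also fell. Those of *S100a8* and *S100a9* rose, from 0.71 to 0.73 and from 0.82 to 0.83.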
